A study of Mus musculus with 2 samples.

Results

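The T cells of the mouse salivary gland described here are cluster 2 of the 12 clusters into which the authors grouped all cells of the study. They were taken by that cluster number, and they came to 1548 of 15605 cells. The ligated library held 1393 of them and the mock library 155, numbers recovered from the deposited means. The glands came from female C57BL6/J mice aged 14 weeks. In the ligated group a clip had kept the ducts that drain these glands shut for 14 days. The mock group had the same operation without a clip, and the glands were taken after the same 14 days. Each group was 1 droplet library that pooled 2 glands, submandibular with sublingual tissue, and in both groups cells bearing EpCAM (epithelial cells), cells bearing Ter119 (the red cell lineage) and dead cells had been removed. With 1 library per group no difference has a test or a replicate check, and every comparison describes these libraries.

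T cells carry a receptor whose variable chains, alpha with beta or gamma with delta, signal through the CD3 proteins. The receptor of alpha with beta chains recognises peptides on MHC molecules. CD8 marks the T cells that read MHC class I and commonly become cytotoxic, while CD4 marks those that read MHC class II. In salivary glands T cells are part of the resident immune population, and T cells that stay in a tissue typically lose the receptors and transcription factors that guide naive cells through blood and lymph nodes.

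Values are mean expression over the cells of a cluster, as UMIs (counted molecules) per 10000 UMIs in each cell. A mean over cells cannot tell fewer expressing cells from less RNA in each. In T cells whose UMI total could be recovered, a sample that favours deep cells, the median total was 7429 UMIs over 287 ligated cells and 6258 over 53 mock cells. A single UMI in 1 mock cell of median total added 0.0103 to the mock mean, against 0.000966 in the ligated library, so low mock levels rest on few molecules. Differences are ligated minus mock after adding 0.1 to each level and taking log2, a scale that makes the changes of weakly expressed genes look smaller. The size rule asks for a level of 0.5 or more in either library together with a difference of 1 or more, up or down.

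The T cell markers were high in this cluster. All 13 of 13 T cell marker genes were above 0 in both libraries, and their summed level was 55.0 in mock and 74.6 in ligated cells of the cluster. In the cluster that carries natural killer markers (cluster 1, here called natural killer-like), the same sum was 7.22 and 7.85. Cd3e, a CD3 signalling chain, had a level of 7.400 in T cells with both libraries together. The next level was 2.78 in cluster 11, a small cluster of 59 ligated and 22 mock cells, and then 1.05 in cluster 8. Of the Cd3e expression summed over all cells of a library, cluster 2 held 93.3% in mock and 86.4% in ligated. For Cd8a, a chain of the CD8 coreceptor, it held 95.1% and 89.4%, and for Trac, the constant part of the receptor alpha chain, 83.7% and 83.9%. Cd4 was low in both libraries, at 0.210 in mock and 0.164 in ligated cells, and Foxp3, the factor of regulatory T cells, was listed in the ligated library only, at 0.0236.

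**Figure D1:**
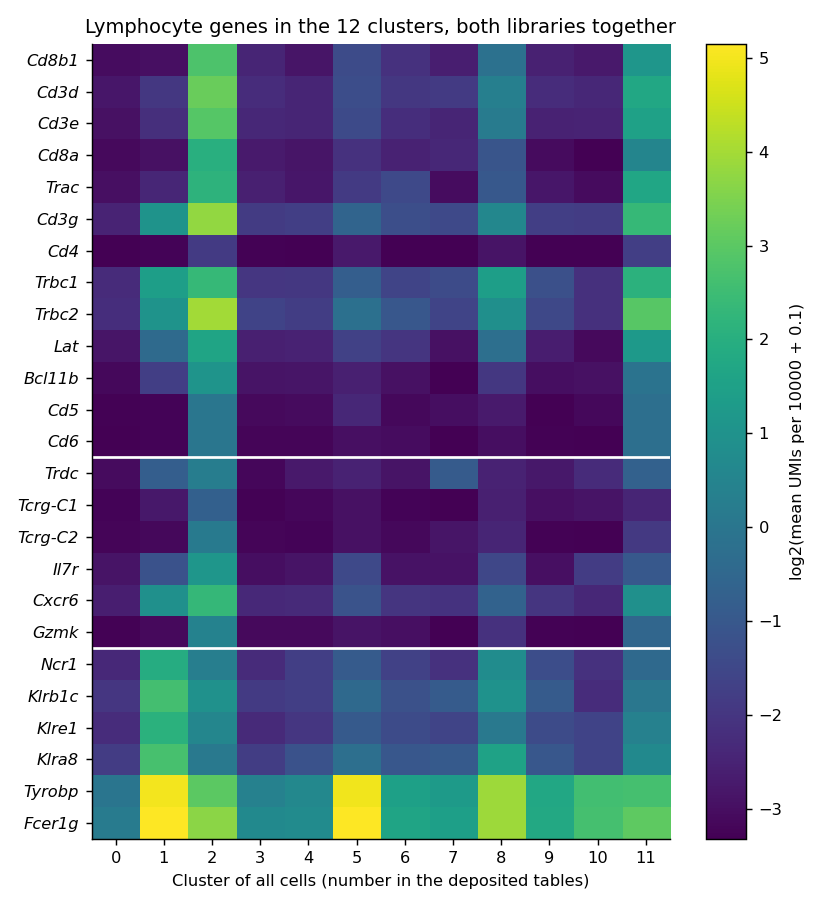
Mean expression of 13 T cell markers (top block), 6 further T cell genes (middle) and 6 natural killer markers (bottom) in the 12 clusters with both libraries together, coloured by log2(mean UMIs per 10000 + 0.1). Cluster 2 has the highest level of 12 of the 13 T cell markers, Cd4 being slightly higher in cluster 11, while each natural killer marker is higher in cluster 1 than in cluster 2.

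The genes that set cluster 2 most apart from the next highest cluster were Il7r, the receptor chain for interleukin 7 (2.09 against 0.406), and Tcrg-C2, a constant segment of the gamma chain (1.01 against 0.163). Tcrg-C1 and Trgv2, also gamma chain segments, came next, followed by Cd8b1 and Cd8a. The cluster therefore held transcripts of both receptor types. Natural killer markers were present too, with 11 of 11 above 0 in both libraries and a summed level of 33.4 in mock and 33.6 in ligated T cells, against 102.5 and 110.7 in the natural killer-like cluster.

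T cells made up 12.2% of the ligated library, with an exact Clopper-Pearson 95% interval from 11.6 to 12.8%. Their share of the mock library was 3.69%, with an interval from 3.14 to 4.31%. The intervals cover counting error only, the shares are of cells left after depletion, and genes that define the cluster (Cd8a, Cd8b1, Il7r) differed between the libraries. The shares are therefore given side by side and not as a change in T cell number. The natural killer-like cluster took 29.4% and 16.2%.

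Of 2887 genes that could enter the size rule in T cells, 45 (1.56%) were past it higher in the ligated library and 42 (1.45%) lower, 87 (3.01%) in all. In the natural killer-like cluster the counts were 42 of 2824 (1.49%) and 18 (0.637%), 60 (2.12%) in all. Part of the list ran through all cell types. Of the 45 higher genes, 29 were past the rule the same way in at least 5 of the 9 compared clusters (those holding 50 cells or more of both libraries), and 16 in all 9. Rpl13a, a ribosomal protein gene, was at 4.15 in mock and 38.6 in ligated T cells (difference 3.19), and its difference was 2.79 to 3.68 in the other 8 clusters. Rnasek was at 0.0125 and 2.40, and Nme2 at 0.175 and 5.91. Among the 45 higher genes 42.2% shared exon sequence with another annotated gene, against 10.8% of the genes tested, and 3834 symbols of the tables were above 0 in 1 library only. The part of the gene annotation in these differences was not tested. Of the 42 lower genes, 11 were past the rule in at least 5 clusters and 1, AY036118, in all 9.

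**Figure D2:**
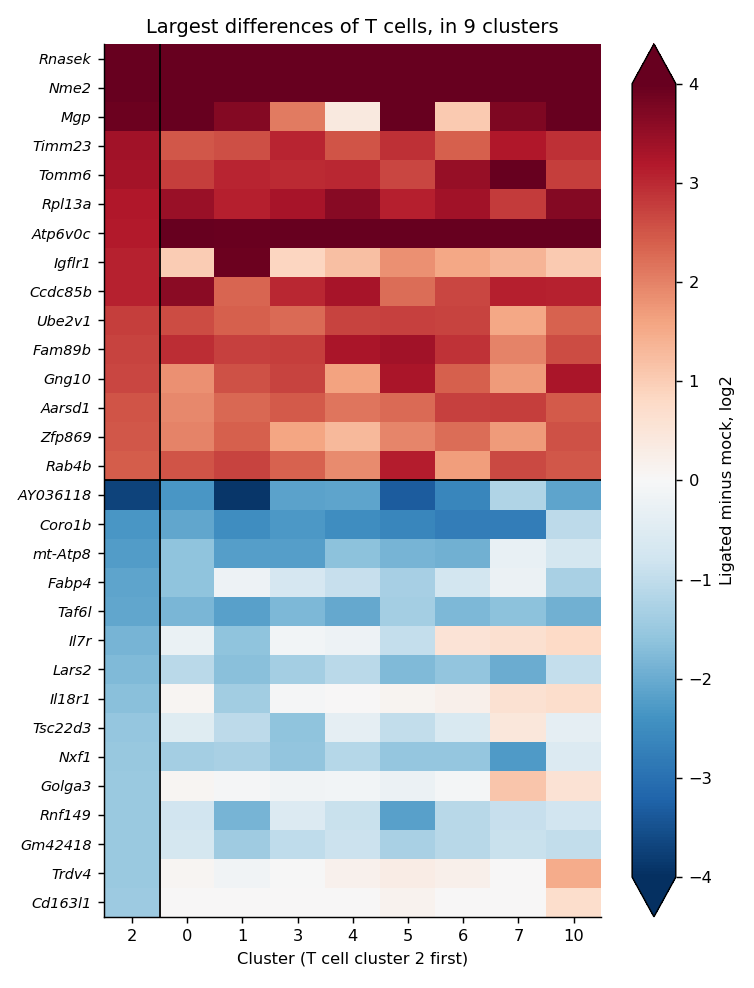
Differences, ligated minus mock on the log2 scale, of the 15 genes most raised and the 15 most lowered in T cells past the size rule, in T cells (cluster 2, first column) and the other 8 compared clusters. Colours end at 4 in size. Of the upper 15, 13 are past the rule the same way in at least 5 clusters, and of the lower 15, 6 are, while Il7r, Il18r1, Trdv4 and Cd163l1 are not.

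In T cells alone among the 9 clusters, 10 genes were past the rule higher and 17 lower, with no test of the difference between clusters. The 10 were Cd8a, Cd8b1, Gzmk, Tcrg-C2, Pdcd1, Ubash3a, Klra3, Susd3, Iscu and Pglyrp2. The 17 included Il18r1, Trdv4, Cd163l1, Tcf7, Satb1, Klf2, Bbc3, Zfp36l2 and Gpr65. Several lymphocyte genes among them could not pass elsewhere: Cd8a and Gzmk, for example, were under 0.5 in both libraries in each of the other 8 clusters. Some of these genes differed the same way in natural killer-like cells. There Tcf7 was at 0.441 in mock and 0.0736 in ligated cells (-1.64) and Il18r1 differed by -1.40, both under the minimum level. Gpr65 (-0.97), Zfp36l2 (-0.80) and Klf2 (-0.78) were lower there too, short of a difference of 1. Of the higher genes, Ubash3a was at 0.0740 and 0.341 there (1.34), under the minimum. Klra3 differed by 0.29 there and by as much as 1.88 in another cluster, where it was under the minimum. Trdv4 (-0.13) and Bbc3 (0.11) were close to level in natural killer-like cells, under the minimum in both libraries. Cd163l1 was at 0 in mock and 0.000353 in ligated natural killer-like cells, too low for a comparison.

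**Figure D3:**
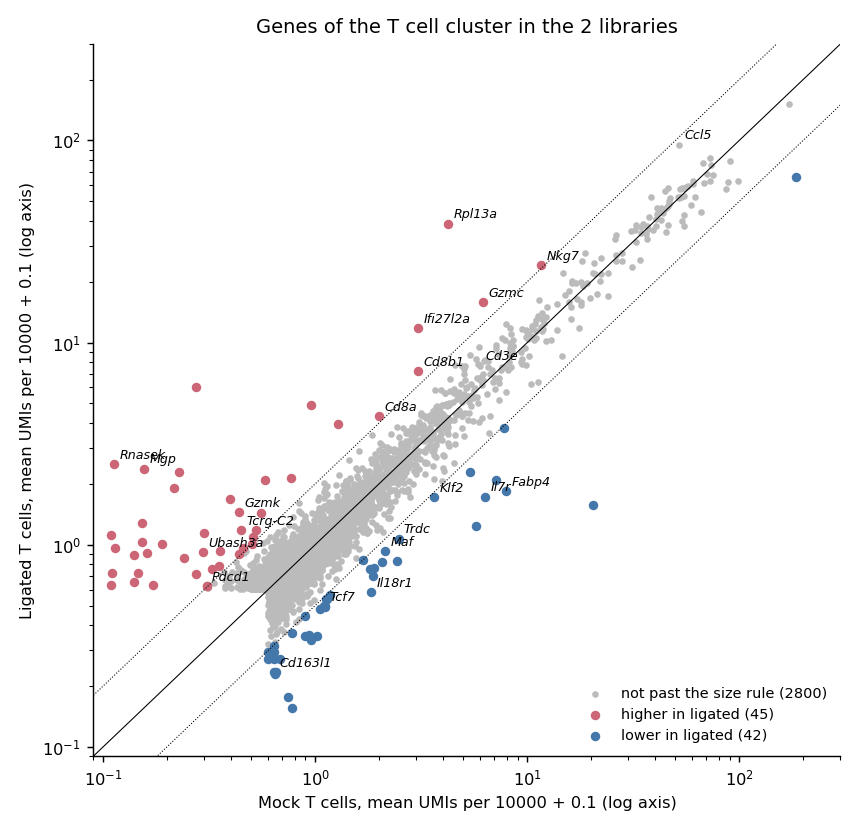
Level of each of 2887 genes in mock (x) and ligated (y) T cells, in mean UMIs per 10000 + 0.1 on log axes. The solid line marks equal levels and the dotted lines a difference of 1 on the log2 scale. The 45 higher genes include Cd8a, Cd8b1 and Gzmk, and the 42 lower ones Il7r, Trdc and Tcf7.

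Transcripts of other cell types in the cluster differed between the libraries. Macrophage markers summed to 0.878 in mock and 3.44 in ligated T cells (7 and 11 of 11 above 0, with Adgre1, Csf1r, Mrc1 and Fcgr1 at 0 in mock). Fibroblast markers summed to 0.608 and 2.59 (10 and 11 of 11, Col1a2 at 0 in mock), and ductal markers to 0.611 and 2.33 (3 and 9 of 10, with Krt8, Krt7, Krt19 and others at 0 in mock and Cldn4 at 0 in ligated). Endothelial markers went the other way, 16.4 and 8.12 (10 and 11 of 11, Cldn5 at 0 in mock). The same endothelial sum over the whole library was 217.0 in mock and 71.4 in ligated. Over markers of other cell types, the median level in the cluster was 3.46% of the library's mean in mock (65 markers) and 8.37% in ligated (62 markers).

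These transcripts touch named genes at both ends of the list. Of the 45 higher genes, Mgp, Dcn, Apoe, Klk1 and Igfbp3 were at least 5 times higher in another cluster. Of the 42 lower genes, 11 were, and Fabp4, Fabp5, Plpp1, Thbd, Mgll, Rbp7 and Rgcc had their highest other level in the endothelial-like cluster 0. Some of these genes were chosen after their values were seen. Fabp4, a fatty acid carrier of capillary endothelium, was at 7.83 in mock and 1.74 in ligated T cells, and at 90.2 in cluster 0. When the median other-type share of each library's mean was subtracted, 36 of the 45 and 36 of the 42 genes stayed past the rule, and 9 and 6 did not. Among these, Mgp, Dcn, Klk1 and Cxcl12 were at 0 after the subtraction, and the difference of Apoe was 0.046, of Igfbp3 0.86 and of Rgcc -0.90. Fabp4 stayed past the rule after it, at 4.76 in mock and 0.390 in ligated T cells (-3.31). Without the subtraction natural killer-like cells had Fabp4 at 1.32 and 1.13.

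Among the receptor and coreceptor genes, both CD8 chains were higher in ligated T cells, and the CD3 chains were higher to a smaller degree. Cd8a (chr6:71373427-71379171, mm10) was at 1.90 in mock and 4.22 in ligated cells, a difference of 1.11. Cd8b1, the CD8 beta chain gene on the same chromosome (chr6:71322788-71337492), was at 2.97 and 7.14, a difference of 1.24. Both were past the size rule, and no other gene of this group was. With a pseudocount of 1 the difference of Cd8a was 0.85, short of the rule. After subtracting the median difference of the other 8 compared clusters, the differences were 0.49 for Cd8a and 0.75 for Cd8b1, also short of it.

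The CD3 and receptor chains differed less. Cd3d was at 7.03 and 9.32 (0.40), Cd3e at 5.88 and 7.57 (0.36) and Cd3g at 11.7 and 13.8 (0.24). Trac was at 3.65 and 4.42 (0.27). The beta chain constant segments, whose near-identical sequence leaves the split of reads uncertain, were at 5.73 and 4.92 for Trbc1 and at 11.3 and 16.1 for Trbc2. Cd5 (0.58 and 0.928) and Cd6 (0.491 and 0.940), surface proteins that tune receptor signals, were higher without passing the rule.

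Of the 15 receptor and coreceptor genes, 13 were above 0 in their difference. Their median difference was 0.40, against -0.01 over the 9079 genes that could enter such a median. At the minimum level 2 of 14 were past the rule higher, where the share over all genes was 1.56%. After subtracting the median difference of the other 8 clusters, Cd3g (-1.29) and Trbc1 (-1.60) were below 0. Cd3d, Cd3e, Trac, Trbc2, Cd2 and Cd4 were below 0 as well. Cd8a (0.49) and Cd8b1 (0.75) stayed above 0 under that subtraction, as did Cd5, Cd6, Cd27, Cd28 and Cd247. A ratio of the same levels restates the larger difference of the CD8 chains. The sum of Cd8a and Cd8b1 over the sum of Cd3d, Cd3e and Cd3g was 0.198 in mock and 0.370 in ligated cells. The ratio of Cd8b1 to Cd8a was 1.56 and 1.69, so both chains were higher to a similar degree. Cd4 over the CD8 chains was 0.0431 and 0.0144. Natural killer-like cells had Cd8a at 0 in mock and 0.0346 in ligated.

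Genes of gamma delta T cells differed in both directions. Trdc, the delta chain constant segment, was at 2.37 in mock and 0.973 in ligated cells (-1.20). Trdv4, a delta variable segment, was at 0.555 and 0.136 (-1.48), and Cd163l1, a scavenger receptor of gamma delta cells, at 0.540 and 0.135 (-1.45). Maf, a transcription factor of interleukin 17-producing gamma delta cells among others, was at 2.04 and 0.828 (-1.20).

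Gamma chain segments also ran the opposite way. Tcrg-C2 was at 0.349 in mock and 1.08 in ligated cells (1.39), and Trgv2 at 0.940 and 1.61 (0.72, not past the rule). Tcrg-C1 was at 0.752 and 0.482 (-0.55) and Tcrg-C4 at 0.590 and 0.661 (0.14). The gamma constant segments resemble each other, so their split is uncertain. Of the 8 gamma delta genes that reached the minimum level, 4 were past the rule lower and 1 higher, where over all genes the shares were 1.45% and 1.56%. The median over the 10 genes with a mean of at least 0.05 was -0.61. The ratio of Trdc to Trac was 0.651 in mock and 0.220 in ligated cells. Trdc was also transcribed in natural killer-like cells, at 0.717 and 0.422. Il17f, a cytokine made by some gamma delta cells, was at 0.138 in mock and 0.00251 in ligated cells, under the minimum of the size rule in both.

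Among the naive and cytokine receptor genes the largest difference was that of Il7r (chr15:9506159-9529941), whose product carries the survival signal of interleukin 7. It was at 6.22 in mock and 1.63 in ligated T cells, a difference of -1.87. Set against the CD3 chains it was 0.253 and 0.0530. In natural killer-like cells it was 0.891 and 0.225 (-1.61), past the rule in the same direction. Il18r1, a receptor chain for interleukin 18, was at 1.74 and 0.483 (-1.66), and its partner Il18rap at 0.614 and 0.271 (-0.94). In natural killer-like cells Il18r1 was at 0.336 and 0.0647, both under the minimum of the rule.

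Other genes of naive and recirculating T cells were also lower. Tcf7, a transcription factor of naive and memory T cells, was at 1.00 in mock and 0.396 in ligated cells (-1.16). Klf2, which maintains the genes for leaving tissue, was at 3.54 and 1.61 (-1.09). The endothelial-like cluster 4 had it at 16.3 with both libraries together, and after subtracting the other clusters the difference was -0.77. Satb1, a chromatin organiser that shares exon sequence with another gene and is uncertain for that reason, was at 1.01 and 0.397 (-1.16). With a pseudocount of 1 the differences were -0.52 for Tcf7, -0.80 for Klf2 and -0.52 for Satb1, short of the rule.

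Other genes of the list were not past the rule. S1pr1, the receptor by which lymphocytes leave tissue, was at 0.890 and 0.430 (-0.90). Lef1, the relative of Tcf7, was at 0.557 and 0.271 (-0.82). Ccr7, the chemokine receptor for lymph nodes, was at 0.304 and 0.0725, under the minimum. Ly6c2, a surface protein of memory CD8 cells, was at 4.94 and 7.33 (0.56).

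Of the 15 naive and recirculating genes, 13 had a difference below 0, against 4677 of 9079 over all genes, and their median of -0.82 was the lowest of the 23 lists. Of the 8 that reached the minimum level, 4 were past the rule lower, where the share over all genes was 1.45%. The median in natural killer-like cells, over 12 of these genes, was -0.48, and the libraries are the same. The wider list of cytokine receptors and signal transducers, which also holds Il7r, had 23 of 32 below 0 and a median of -0.26. Of its 17 genes at the minimum level Il7r and Il18r1 were past the rule lower, where the share over all genes was 1.45%. Il2rb, the shared chain of the interleukin 2 and 15 receptors, was level at 3.34 and 3.31. Chemokine receptors had 7 of 10 below 0. Only 4 of them reached the minimum level of the rule, and none of the 4 was past it. Under that minimum were Cx3cr1 (0.425 and 0.0892, -1.47), Cxcr4 (0.313 and 0.0638, -1.33) and Ccr7. Cxcr6, a receptor of tissue-resident T cells, was at 4.19 and 4.91, and Cxcr3 at 1.84 and 2.41.

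**Figure D4:**
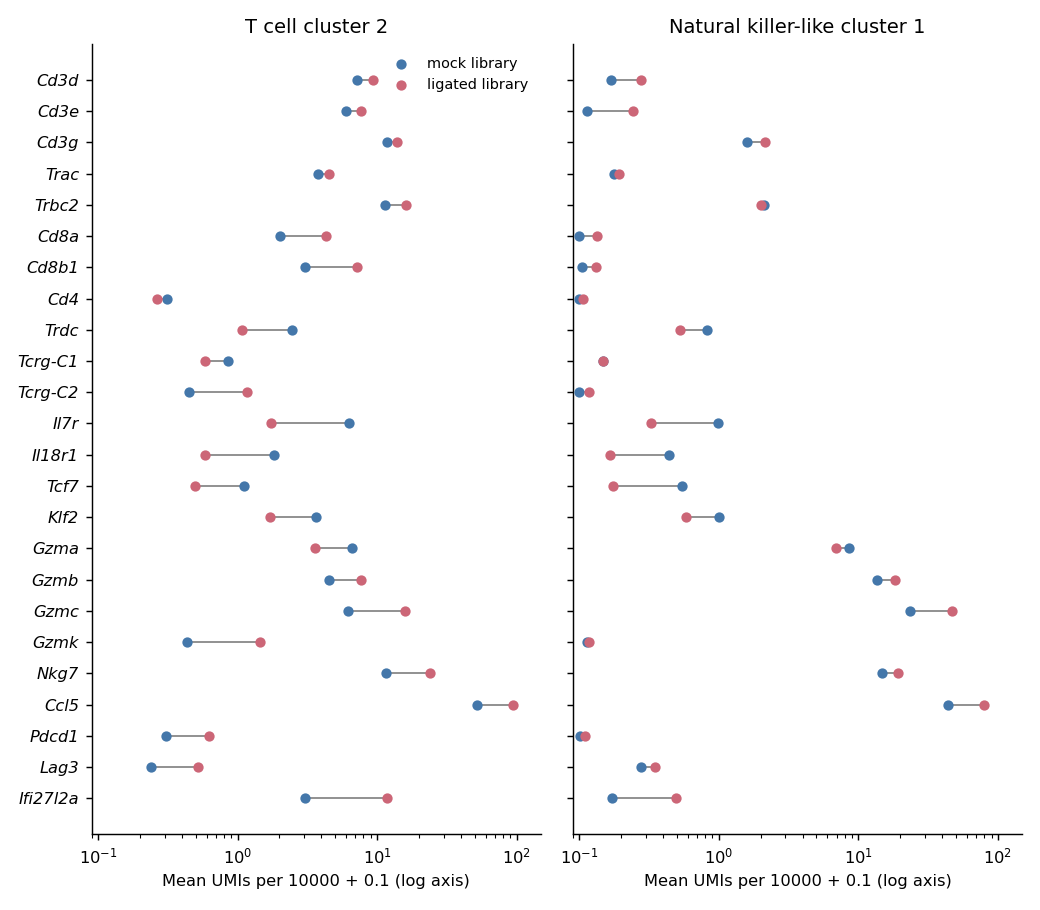
Levels of 24 genes in mock and ligated cells of the T cell cluster (left) and of the natural killer-like cluster 1 (right), in mean UMIs per 10000 + 0.1 on a log axis. In T cells the points of Cd8a, Cd8b1, Gzmk and Ifi27l2a lie higher in ligated and those of Trdc, Il7r, Il18r1, Tcf7 and Klf2 lower, and the CD3 genes lie close together.

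Cytotoxic genes differed in both directions. Gzmk, granzyme K, was at 0.336 in mock and 1.35 in ligated T cells (1.74), and at 0.0138 and 0.0163 in natural killer-like cells. Gzma, granzyme A, was lower, at 6.52 and 3.47 (-0.89), short of the rule. Prf1, the pore-forming perforin, was at 1.01 and 0.899 (-0.15).

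Gzmc and Nkg7 were past the rule in most clusters. Gzmc, granzyme C, was at 6.06 and 15.7 (1.36) in T cells and past the rule in all 9 clusters, and the natural killer-like cluster had it at 23.2 and 46.5. Nkg7, a protein of cytotoxic granules, was at 11.5 and 24.0 (1.05) and past the rule in 8 of the 9. Gzmb, granzyme B, was at 4.45 and 7.63 (0.76). The median difference over the other 8 compared clusters was 3.33 for Gzmc and 2.23 for Nkg7, so that once it is subtracted the T cell differences turn negative, to -1.97 and -1.18. The part of RNA carried over between cells was not tested. Of 15 cytotoxic genes 10 had a difference above 0, with a median of 0.11. All 15 reached the minimum level and 3 were past the rule higher, where the share over all genes was 1.56%.

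Receptors shared with natural killer cells were nearly level. Klrd1 was at 4.11 and 3.73, Klrk1 at 3.58 and 2.97, and 11 of 18 had a difference below 0 (median -0.16). Klra3, a Ly49 receptor with close relatives, was the 1 past the rule of 17 at the minimum level, at 0.225 and 0.655 (1.21). The share over all genes past the rule higher was 1.56%. Ncr1, the natural killer receptor NKp46, was at 1.70 and 1.07 (-0.62).

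Ccl5, a chemokine of effector lymphocytes, was the chemokine with the highest value, at 52.1 in mock and 94.99 in ligated T cells (0.87). Natural killer-like cells had it at 43.8 and 79.6 (0.86). Ccl4 was at 3.77 and 4.50 and Xcl1 at 9.83 and 11.2. Ccl1 was at 0 in mock and 0.291 in ligated T cells. All 6 chemokines with a mean of at least 0.05 had a difference above 0, and none of the 5 at the minimum level was past the rule. Ccl5 and Xcl1 were past the rule higher in 7 of the 9 compared clusters. The median difference over the other 8 was 2.72 for Ccl5 and 2.61 for Xcl1. Once it is subtracted, the T cell differences turn negative, to -1.86 and -2.42, and that of Ccl4 turns negative too. Ccl1 differed by 1.97 in T cells and by -0.59 to 1.15 in the other 8 clusters.

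Among checkpoint and costimulation genes, Pdcd1, the inhibitory receptor PD-1, was at 0.207 in mock and 0.523 in ligated cells (1.02), close to both limits of the rule, and it was short of it under 4 alternatives (0.33 with a pseudocount of 1). Lag3, another inhibitory receptor, was at 0.138 and 0.422, under that minimum. Tox, a factor of chronically stimulated T cells, was at 0.686 and 1.28 (0.81), while Ctla4 (0.115 and 0.133) and Tigit (0.0469 and 0.0327) were low in both. Of the 17 genes of the list 11 had a difference above 0, with a median of 0.11, and 11 reached the minimum level. Pdcd1 was the 1 past the rule among those at the minimum level, where the share over all genes was 1.56%.

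Among the 22 genes of receptor signalling 16 had a difference above 0, with a median of 0.18. Ubash3a, a phosphatase that restrains receptor signals, was the 1 past the rule, at 0.196 in mock and 0.820 in ligated cells (1.64). It was 1 of 19 at the minimum level, where the share over all genes past the rule higher was 1.56%. The proximal kinases stood close to level, with Lck at 4.04 and 4.86 and Zap70 at 1.21 and 1.35. Of 24 transcription factors 10 had a difference above 0. Of the 17 at the minimum level Tcf7, Satb1 and Klf2 were past the rule lower, where the share over all genes was 1.45%. All 3 are also counted in the naive and recirculating list, so the 2 counts are not separate. Bcl11b, which keeps T cell identity, was at 1.66 and 2.04, and Eomes at 0.417 and 0.403.

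Tissue residency genes showed no common direction, with 8 of 15 above 0, none of 10 at the minimum level past the rule and a median of 0.09. Cd69, which holds T cells in tissue, was at 5.00 in mock and 6.43 in ligated cells, and Itgae, the integrin chain CD103, at 0.968 and 1.34. Rgs1 was at 9.75 and 7.66. None of the 27 adhesion and migration genes at the minimum level was past the rule, and Cd44 was at 1.15 and 0.573 (-0.89).

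Interferon response genes were mostly higher in ligated cells, with 27 of 34 above 0 and a median of 0.32, against 0.16 in natural killer-like cells. Ifi27l2a, an interferon-induced gene, was the 1 past the rule of 24 at the minimum level, at 2.96 in mock and 11.7 in ligated T cells (1.95). The share over all genes past the rule higher was 1.56%. After subtracting the median difference of the other 8 clusters, that of Ifi27l2a was 0.86, short of the rule. Its natural killer-like levels were 0.0724 and 0.394, and it was past the rule in 4 of the 9 clusters. Isg15 was at 1.03 and 1.86 (0.79), Irf7 at 0.511 and 0.987 (0.83), and Ifit1 at 0.722 and 0.481 (-0.50). MHC class I genes were close to level, with H2-K1 at 26.2 and 34.0 and B2m at 19.1 and 19.6. None of the 16 class I genes was past the rule, and the median was 0.14.

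T cell cytokines differed in both directions. Ifng was at 1.41 in mock and 1.02 in ligated cells, Tnf at 1.27 and 0.856, and Ltb, lymphotoxin beta, at 10.8 and 12.2. Of 11 cytokine genes with a mean of at least 0.05, 8 had a difference below 0, with a median of -0.43. Only 5 of them reached the minimum level of the rule, and none of these was past it. Lta, lymphotoxin alpha, was under that minimum, at 0.123 and 0.410 (1.19). Il4, Il5, Il10 and Il13 were each at 0 in mock T cells, and at 0.00261, 0, 0 and 0.00158 in ligated ones, though Il5, Il10 and Il13 were listed in the ligated library only.

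**Figure D5:**
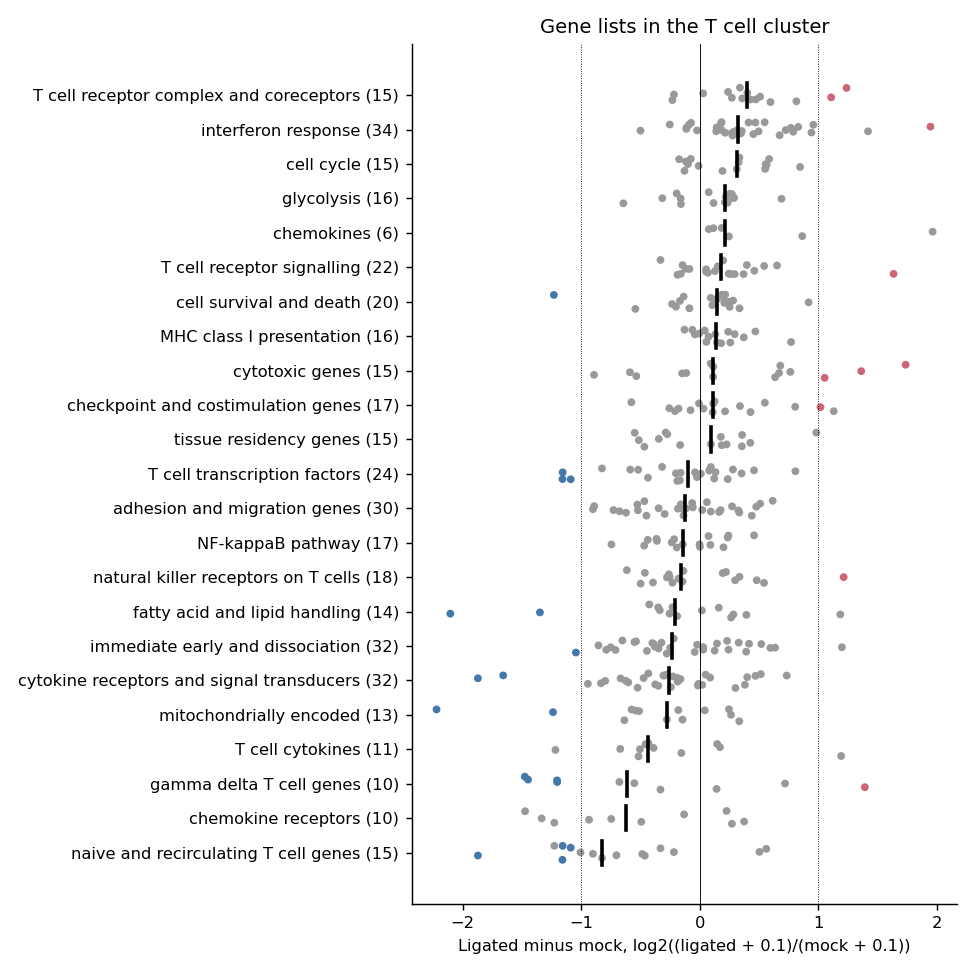
Differences, ligated minus mock on the log2 scale, of the genes of 23 lists in T cells, 1 point per gene (vertical scatter within a row has no meaning), with the median as a black bar and the number of genes in brackets. Red and blue points are past the size rule, and grey points beyond the dotted lines are under its minimum level. The lowest median, -0.82, is that of naive and recirculating genes and the highest, 0.40, that of receptor and coreceptor genes.

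The remaining lists carried few genes past the rule. Immediate early genes, which tissue dissociation can induce, had a median of -0.23, with 19 of 32 below 0. Of the 22 at the minimum level Zfp36l2, an RNA-decay factor, was past the rule lower, at 7.65 in mock and 3.66 in ligated cells (-1.04). The share over all genes was 1.45%. In natural killer-like cells Zfp36l2 was at 8.20 and 4.68. Of 16 survival and death genes at the minimum level Bbc3, the death gene PUMA, was past the rule lower, at 0.537 and 0.171 (-1.23). The share over all genes was again 1.45%. The survival gene Bcl2 was at 4.92 and 5.44. Cell cycle genes had a median of 0.31 over 15 genes, with Mki67 at 0.0262 and 0.127. Glycolysis genes had a median of 0.22, with Gapdh at 5.29 and 8.59 (0.69), and NF-kappaB genes a median of -0.14, with Nfkbia at 3.89 and 2.28 (-0.74).

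Mitochondrially encoded genes had a median of -0.28. Of the 12 at the minimum level, mt-Atp8 (5.66 and 1.13) and mt-Nd4l (5.29 and 2.19), which overlap their neighbours, were past the rule lower. The share over all genes was 1.45%. Of the 4 lipid genes at the minimum level Fabp4 and Fabp5 were past the rule lower, both with endothelial levels far above those of T cells. The fatty acid oxidation gene Acadl was at 1.01 and 0.871.

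A few T cells entered the stromal subset that the authors clustered separately. Of 87 cells of subset cluster 1 that could be matched to a cluster of all cells, 5 came from the T cells, and none of the matched cells of the other 4 subset clusters did. Subset cluster 1 held 14 mock and 435 ligated cells, so its mock levels rest on very few cells. There Cd3d was at 1.05 in mock and 1.96 in ligated cells, while Cd3e went the other way, at 1.79 and 1.43. Pdgfra, a fibroblast receptor, was at 3.10 and 2.30.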

How the data were processed

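Each of the 2 libraries was a 10X Genomics droplet library. The authors deposited tables of cluster means, made with Cell Ranger 6.0.1 and Seurat on mm10, per the submitters' processing notes. The deposited values are neither counts nor CPM (unit other): they are linear means over cells of UMIs per 10000, since every column sums to 10000. Calendar dates had replaced 21 gene names, which were restored from the gene order. How doublets were treated is not given in the sources used here, and cell barcodes were not analysed here.

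Cell numbers were recovered from joint and split means, which met in a weighted mean with a largest residual of 1.49e-07. Single-cell UMI totals came from genes seen in 1 cell, with at least 2 genes giving each total. Symbols above 0 in 1 library only were left out of the size rule (pseudocount 0.1, minimum 0.5, log2 difference 1). List genes entered at a mean of at least 0.05. The named genes are members of 23 gene lists or 20 marker lists, the 15 genes most raised and most lowered past the rule, and the 25 leading genes of the cluster, and others were chosen after their values were seen. The members and lists were chosen with earlier results of these data known. Cells were matched to the subset through equal summed values within 1e-07. The scripts were tested on simulated data and ran on Python 3.11.15 with pandas 2.3.3 and SciPy 1.17.1. Alternatives covered the pseudocount, the minimum, the symbols kept, the scaling and carried-over RNA. The values of 1 list gene are not reported here.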

Additional observations from a re-analysis of the deposited data

Results flagged for a closer look

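Maf was past the size rule lower in T cells (-1.20), while it was past it higher in the endothelial-like cluster 0 (1.19) and in cluster 10 (1.40). In cluster 3 it was lower, as in T cells (-1.38). Zfp36l2 was past the rule lower in T cells (-1.04) and higher in cluster 10 (1.64). They are listed because the same contrast went opposite ways in different clusters of these libraries. With 1 library per group the difference between clusters was not tested, and cluster 10 had 60 ligated and 85 mock cells.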

How the results depend on the processing

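With 1 library per group, leaving out a replicate was not possible, and no result has a test. No paired analysis was possible because each group has 1 library. The T cell shares were the same under both ways of recovering cell numbers. Both ways solve the same weighted mean, so they had to agree and are no separate check. The 45 higher and 42 lower genes became 14 and 6 with a pseudocount of 1, 13 and 12 where the minimum level was 2, 100 and 65 with no minimum, 91 and 67 with all symbols kept, and 19 and 5 where the difference had to reach 2. The 45 higher genes became 26 without genes sharing exon sequence and 75 after rescaling without mitochondrial and ribosomal genes, under which the lower count was 56. In 2 alternatives chosen after seeing the data, leaving out genes past the rule in 5 or more of the 9 clusters left 16 higher and 31 lower, and subtracting the median difference of the other 8 clusters left 4 and 88. Under that subtraction Gzmc (-1.97), Nkg7 (-1.18), Klk1 (-0.48), Rnasek (-0.12), Nme2 (-0.0029), Rpl13a (-0.13), Atp6v0c (-1.61), Fam89b (-0.11) and Rab4b (-0.080) went below 0 and Coro1b (0.15) above it, while 19 of the 53 named genes past the rule stayed past it. The cause was not tested. Under the same subtraction the medians of 11 gene lists moved and 12 stayed the same. Where the minimum level was 2, 6 list medians moved and 17 stayed the same. A pseudocount of 1 moved 5 list medians and left 18 the same. With no minimum 1 list median moved, and with a pseudocount of 0.01 also 1. With a pseudocount of 1, 18 of the 53 stayed past the rule, Il7r, Cd8b1 and Ifi27l2a among them, while Gzmk (0.82), Tcrg-C2 (0.62), Ubash3a (0.61), Il18r1 (-0.89), Trdc (-0.77) and Maf (-0.73) did not, and with a pseudocount of 0.01 all 53 did. The 155 mock cells limit every low mock value.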
